A study of Mus musculus with 6 samples.

Results

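Levels of 10 genes used as markers of satellite glia and immature glia were read in RNA-Seq libraries from cultures of mouse sympathetic ganglion. The genes were Fabp7, Kcnj10, Glul, Apoe, S100b, Cdh19, Gfap, Slc1a3, Gja1 and Ptprz1. They were taken by gene name from the deposited table of read counts, and all 10 were among its 20173 genes. The cultures came from sympathetic chains, taken from male mice 3 weeks old on a C57BL/6J background, and were kept for 4 to 5 days in neural medium. There were 3 libraries from Slit2fl/fl mice, which carry floxed alleles of the axon guidance gene Slit2, and 3 from Slit2th mice, which carry the same floxed alleles and a Cre recombinase driven by the Th (tyrosine hydroxylase) promoter. Both groups thus share the floxed allele, and mice with Cre alone were not analysed here. The number of mice behind a library and whether the replicates were separate cultures are not stated in the sources used here, so p-values measure only the spread between these libraries. The RNA was taken from whole cultures, in which fewer cells of a type and less RNA per cell cannot be told apart.

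Satellite glia wrap the cell bodies of neurons in peripheral ganglia. They clear glutamate, take up potassium and are joined to each other by gap junctions, and share their neural crest origin with the Schwann cells of nerves. Their usual markers include the fatty acid binding protein Fabp7, the inward rectifier potassium channel Kcnj10 (Kir4.1) and the glutamine synthetase Glul. Cdh19, a cadherin, and S100b, a calcium-binding protein, mark a wider range of peripheral glia, Schwann cells included.

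The data went against the name satellite glia for 3 of the 10 genes. Fabp7 and Kcnj10 never exceeded 3 counts in any library, and Gfap did so in 1 library. The other 7 genes, Glul among them, were over 3 counts in all 6 libraries. S100b and Cdh19 together held between 90.3 and 94.7% of the counts of the 10 genes in each library. The set is therefore described by its genes and not as a cell type. Sox10, a transcription factor of the whole peripheral glial lineage, was abundant, at 442 to 697 CPM (counts per 1000000 counts of the library, with library sizes normalized by edgeR's TMM method). The labels give the cell type as neuron, but Th and Rbfox3 had 0 counts in all 6 libraries.

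The libraries held 1533367 to 3155406 counts in Slit2fl/fl and 1255939 to 1999485 in Slit2th. A count of 3, taken as the floor of detection, ranged from 0.959 to 2.64 CPM between the deepest and the shallowest library, and covers counting error only. Replicate 1 of each group stood apart from the other libraries: the correlation of log2 CPM was 0.842 and 0.863 between Slit2fl/fl replicate 1 and the rest of its group, against 0.938 between Slit2fl/fl replicates 2 and 3. The corresponding values were 0.869 and 0.868 for Slit2th replicate 1 and 0.965 for Slit2th replicates 2 and 3. Results for the genes are therefore also given without replicate 1 of both groups. Slit2, the targeted gene, had 44.4, 55.0 and 43.7 CPM in replicates 1, 2 and 3 of Slit2fl/fl, against 14.96, 11.4 and 15.2 CPM in those of Slit2th. All Slit2th libraries were below all Slit2fl/fl libraries, and the log2 fold change was -1.78 (standard error 0.37, adjusted p = 0.423 by edgeR's quasi-likelihood test with Benjamini-Hochberg adjustment over all tested genes). The counts cover the whole gene, so the floxed part was not read apart.

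The promoters of S100b, with the highest level of the set, and of Kcnj10, at or under the floor in every library, are shown to compare the sequence before their starts. They are RefSeq sequences of GRCm38.p6, the 250 bases before the annotated start on the plus strand, at chr10:76253586-76253835 for S100b and chr1:172340960-172341209 for Kcnj10. Capitals mark CCAAT or its reverse complement ATTGG, a common motif near gene starts.
S100b promoter: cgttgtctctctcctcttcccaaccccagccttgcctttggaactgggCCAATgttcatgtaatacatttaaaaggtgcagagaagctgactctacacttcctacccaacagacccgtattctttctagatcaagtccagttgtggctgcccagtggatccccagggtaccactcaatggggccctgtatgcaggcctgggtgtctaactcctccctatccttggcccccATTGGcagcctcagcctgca
Kcnj10 promoter: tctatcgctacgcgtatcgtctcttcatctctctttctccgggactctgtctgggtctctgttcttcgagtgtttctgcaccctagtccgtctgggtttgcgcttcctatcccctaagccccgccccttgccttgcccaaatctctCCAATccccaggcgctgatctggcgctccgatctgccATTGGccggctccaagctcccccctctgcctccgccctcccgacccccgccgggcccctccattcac
Both windows held CCAAT 2 times, once on each strand. In S100b the copies lay at positions -202 to -198 and -20 to -16, and in Kcnj10 at -104 to -100 and -67 to -63, counted from the base before the start as -1. RefSeq gave 11 starts for 9 of the 10 genes, all but Cdh19. Of these 9 genes, 5 held CCAAT in a window before a start, beside 33.9% of the 32851 mouse promoter windows of the same length. The units differ here and below: a gene was counted once over all its starts, while the shares over all promoters count single windows. The letters ACAAAG or AACAAT, which match the core bound by Sox factors, were found on either strand in 24.0% of all windows. Among the 9 genes they were found in 1, as ACAAAG on the minus strand at positions -54 to -49 before the first of the 3 starts of Apoe. CCAAT was thus present before a gene of high level and before one near the floor.

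S100b and Cdh19 were far more abundant than the other 8 genes. Per kilobase of merged exon, the scale that allows levels of different genes to be compared, the mean over the 6 libraries was 1068 ± 430.0 CPM per kb (SD, n = 6) for S100b and 312 ± 141 CPM per kb (SD, n = 6) for Cdh19. Among all 20173 genes S100b ranked 37 and Cdh19 ranked 145 on this scale. Apoe (15.3 ± 19.1 CPM per kb, SD, n = 6) and Glul (15.1 ± 3.94 CPM per kb, SD, n = 6) followed and did not differ beyond their spread, as Apoe was above Glul in 2 of the 6 libraries. Gja1 came next at 8.10 ± 1.65 CPM per kb, then Slc1a3 at 2.72 ± 1.21 CPM per kb and Ptprz1 at 0.740 ± 0.309 CPM per kb (SD, n = 6 each). In all 6 libraries S100b was above Cdh19, Glul above Gja1, Gja1 above Slc1a3 and Slc1a3 above Ptprz1. Ptprz1 was above Fabp7 in 5 of 6 libraries. Fabp7, Gfap and Kcnj10, with means of 0.431, 0.339 and 0.158 CPM per kb, were not ordered beyond their spread.

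**Figure D1:**
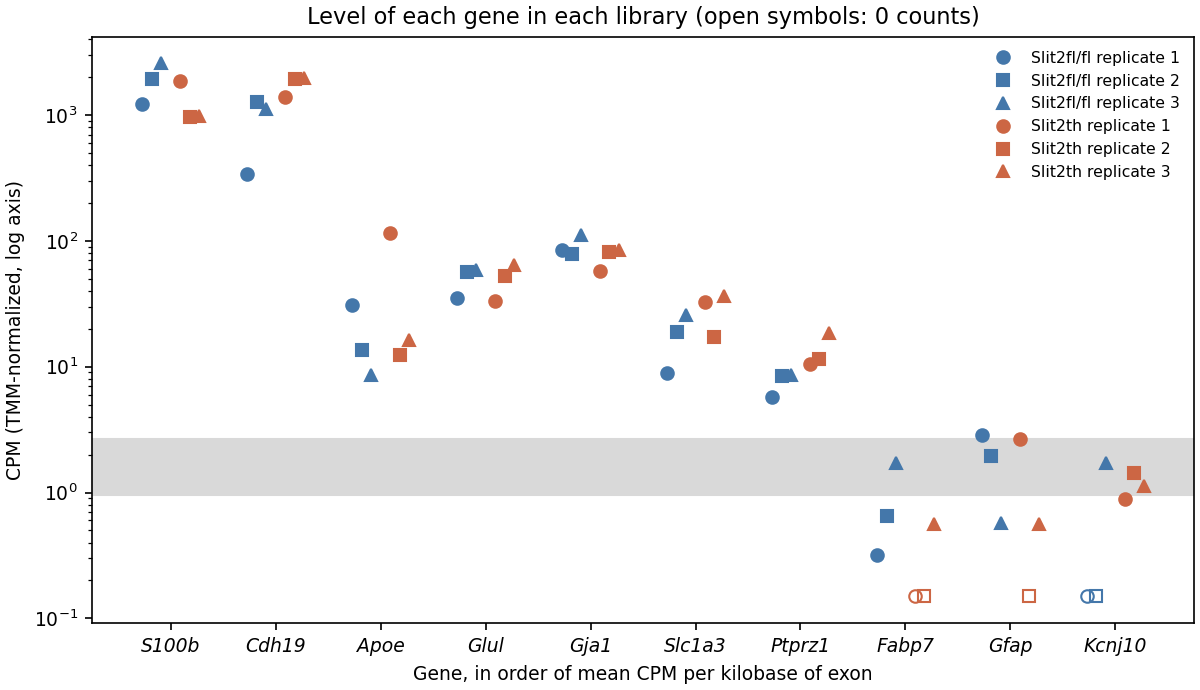
Level of the 10 genes in each of the 6 libraries, as TMM-normalized CPM on a log axis, with the genes ordered by mean CPM per kilobase of exon. Blue symbols are Slit2fl/fl and orange symbols Slit2th, symbol shapes give the replicate, open symbols stand for 0 counts and are drawn at an arbitrary height, and the grey band spans 3 counts in the deepest to 3 counts in the shallowest library (0.959 to 2.64 CPM). S100b and Cdh19 sit above 300 CPM everywhere, while Fabp7, Gfap and Kcnj10 sit in or below the band or just above it.

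The question put to the 2 groups was whether any of these genes differed when Slit2 was deleted under the Th promoter. Of the 12152 genes with at least 1 CPM in at least 3 libraries, 9 were members of the set, and Fabp7 was not tested. None of the 9 passed an adjusted p of 0.05 in edgeR's quasi-likelihood test, as did 0 (0%) of all genes tested. On the same counts, limma voom also called 0 of the 9, beside 0 of all genes tested. DESeq2 called 0 of the 9, beside 31 of the 12152 genes tested, and gave no adjusted p for Kcnj10 and Gfap. At an unadjusted p under 0.05 by edgeR there were 0 members higher, where 3.98% of all genes were, and 0 lower, where 6.78% were. In either direction the count was 0 of 9 by DESeq2, beside 9.81% of all genes, and 1 of 9, Cdh19, by limma voom, beside 9.88% of all genes. The groups did not overlap for 2 of the 9, Cdh19 and Ptprz1, with all Slit2th libraries higher (8.72% of all genes tested), and for 0 with all Slit2th libraries lower (9.73%). The log2 fold change was above 0 for 6 of the 9 and below 0 for 3, with a median of 0.70, beside a median of -0.05 over all genes tested. Of the 7 members over the floor in every library, 5 had a log2 fold change above 0 and 2 below 0, also with a median of 0.70. With libraries left out the median of those tested ranged from 0.145, without Slit2th replicate 3, to 0.99, without replicate 2 of both groups.

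Without replicate 1 of both groups, 8 of the set were among the 11473 genes tested and 2 passed an adjusted p of 0.05 in the same edgeR test. S100b was 1 of 8 called lower, beside 2.53% of all genes, and Cdh19 was 1 of 8 called higher, beside 0.767% of all genes. That fit rests on 2 libraries a group.

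**Figure D2:**
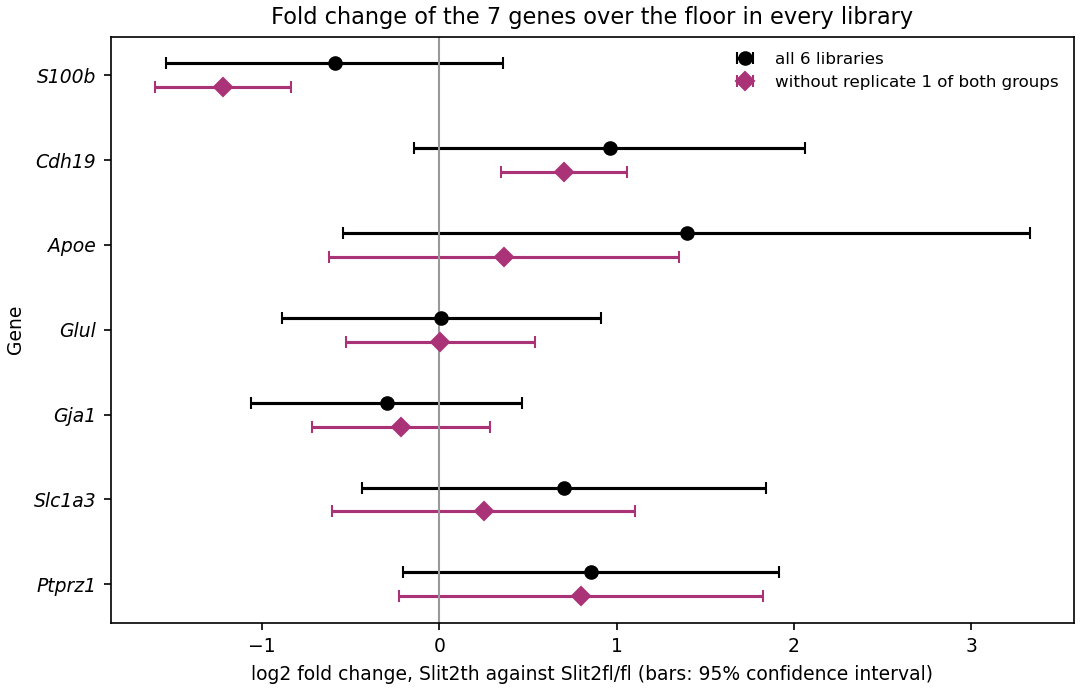
Log2 fold change of Slit2th against Slit2fl/fl from edgeR's quasi-likelihood fit for the 7 genes over the floor of 3 counts in every library, with bars for the 95% confidence interval. Black circles use all 6 libraries and purple diamonds leave out replicate 1 of both groups. All 7 black intervals cross 0. The purple intervals of S100b (-1.61 to -0.84) and Cdh19 (0.345 to 1.06) do not, while the other 5 purple intervals do.

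S100b encodes a calcium-binding protein of the EF-hand family that glia hold in the cytoplasm and also secrete. Its position in GRCm38 is chromosome 10, 76253853 to 76261159, plus strand, where its 3 merged exons span 1484 bases and overlap no other annotated gene. S100b had 1231, 1916 and 2572 CPM in replicates 1, 2 and 3 of Slit2fl/fl, against 1853, 960.5 and 980.2 CPM in those of Slit2th. Slit2th replicates 2 and 3 were the lowest of all 6 libraries and Slit2th replicate 1 lay among the Slit2fl/fl values, so the groups overlapped. The means were 1906 ± 670.3 CPM for Slit2fl/fl and 1265 ± 510 CPM for Slit2th (SD, n = 3 each). The log2 fold change was -0.59 (standard error 0.42, 95% interval -1.54 to 0.36, adjusted p = 0.586 by edgeR's quasi-likelihood test). The exact permutation test over libraries (two-sided, log2 CPM) gave a p of 0.2, where 0.1 is the smallest value that 3 against 3 allows. Without replicate 1 of both groups S100b fell by 1.22 on the log2 scale (standard error 0.18, adjusted p = 0.00187 by edgeR's test).

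Cdh19 encodes a type II cadherin, a cell adhesion protein, and is one of the usual markers of Schwann cell precursors. Its position in GRCm38 is chromosome 1, 110888326 to 110977584, minus strand, where its 13 merged exons span 4280 bases and overlap no other annotated gene. Cdh19 had 339.7, 1265 and 1118 CPM in replicates 1, 2 and 3 of Slit2fl/fl, against 1383, 1941 and 1971 CPM in those of Slit2th. The lowest Slit2th library was above the highest Slit2fl/fl library, and Slit2fl/fl replicate 1 was lower than the rest by a wide margin. The means were 908 ± 497 CPM for Slit2fl/fl and 1765 ± 331 CPM for Slit2th (SD, n = 3 each), with a log2 fold change of 0.96 (standard error 0.49, 95% interval -0.14 to 2.06). The adjusted p was 0.493 by edgeR's quasi-likelihood test, the lowest of the set, and the two-sided exact permutation p was 0.1, the smallest possible. Without replicate 1 of both groups Cdh19 rose by 0.70 on the log2 scale (standard error 0.17, adjusted p = 0.0355 by edgeR's test).

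The 2 abundant genes were also set against each other within a library, which does not depend on how libraries are scaled. There were 3.62, 1.51 and 2.30 S100b counts per Cdh19 count in replicates 1, 2 and 3 of Slit2fl/fl, against 1.34, 0.495 and 0.497 in those of Slit2th. All 3 Slit2th ratios were below all 3 Slit2fl/fl ratios, the nearest being 1.34 in Slit2th replicate 1 and 1.51 in Slit2fl/fl replicate 2. The ratio was chosen after its values were seen and is given without a test. As a share of the counts of the 10 genes, S100b made up 57.0 to 70.8% in Slit2fl/fl and 30.9 to 53.1% in Slit2th, and Cdh19 made up 19.5 to 37.6% in Slit2fl/fl and 39.6 to 63.1% in Slit2th.

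**Figure D3:**
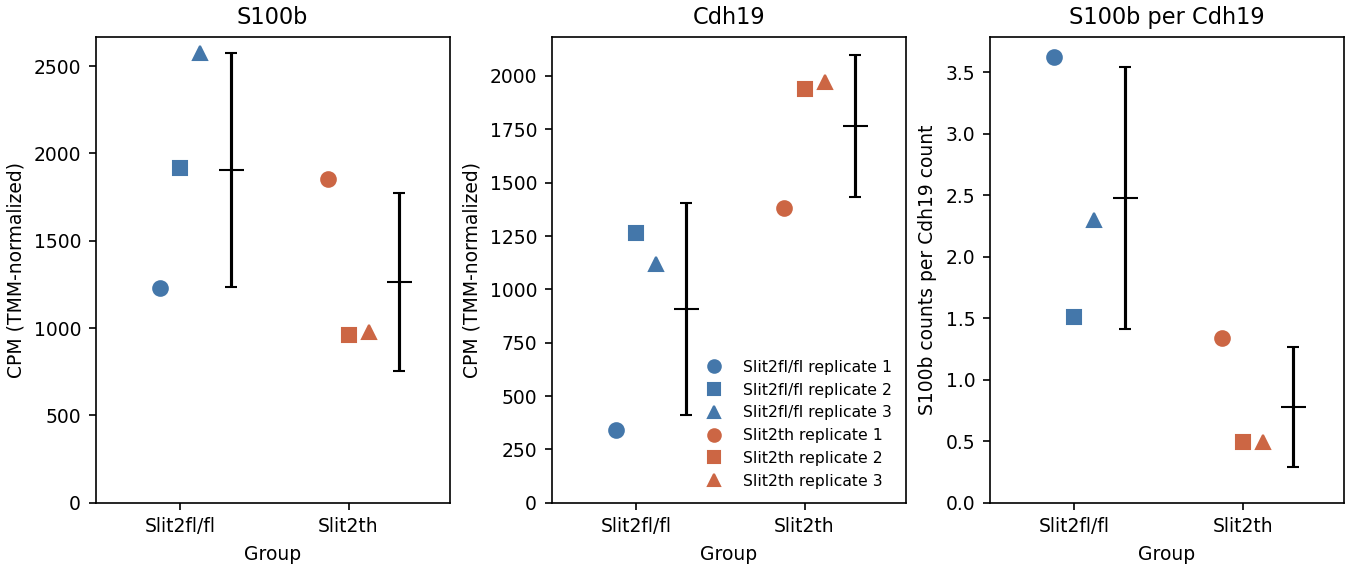
S100b (left) and Cdh19 (middle) in TMM-normalized CPM, and S100b counts per Cdh19 count (right), by group, with a symbol per library and the mean ± SD of 3 libraries beside it. The S100b values of the groups overlap. All Slit2th libraries are above all Slit2fl/fl libraries for Cdh19 and below them for the ratio, where Slit2th runs from 0.495 to 1.34 and Slit2fl/fl from 1.51 to 3.62.

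Genes whose log2 CPM ran most like that of S100b over the 6 libraries were Ndufa5 (Pearson's r = 0.985), Prps1l3 (0.984), Gpd2 (0.984), Hhipl1 (0.977) and Sfxn3 (0.976), out of 12151 other genes tested. Spearman's rho was 0.943, 1, 1, 0.886 and 0.943 for these in turn, and Pearson's r stayed between 0.953 and 0.976 without the 2 libraries farthest from the median of S100b. None of the other 9 genes of the set was among them. These values describe 6 points that share their libraries' depth and composition.

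Slc1a3 and Glul carry the glutamate handling of glia: Slc1a3 (GLAST) takes glutamate up and Glul converts it to glutamine. Slc1a3 (chromosome 15, 8634124 to 8710764, minus strand) had 8.95, 18.8 and 25.5 CPM in replicates 1, 2 and 3 of Slit2fl/fl, against 32.6, 17.1 and 36.6 CPM in those of Slit2th. Slit2th replicate 2 lay below Slit2fl/fl replicates 2 and 3, so the groups overlapped. The means were 17.7 ± 8.34 and 28.8 ± 10.3 CPM (SD, n = 3 each), with a log2 fold change of 0.70 (standard error 0.51, adjusted p = 0.590 by edgeR's quasi-likelihood test). Glul (chromosome 1, 153899944 to 153909723, plus strand) had 34.8, 56.9 and 59.0 CPM in replicates 1, 2 and 3 of Slit2fl/fl, against 33.4, 52.9 and 64.8 CPM in those of Slit2th. Replicate 1 was the lowest of both groups. The means of Glul, 50.3 ± 13.4 and 50.4 ± 15.8 CPM (SD, n = 3 each), lay within the spread of the libraries, and the log2 fold change of 0.01 had a 95% interval of -0.89 to 0.91. Its exons overlap those of Mir8114 on the same strand and Teddm2 on the opposite strand, and whether counting used strand is not given in the sources used here.

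The other genes of glutamate uptake and the glutamine cycle were counted beside them. Of 8 tested without Slc1a3 and Glul, 5 had a log2 fold change above 0 and 3 below, with a median of 0.30, and 0 passed an adjusted p of 0.05. The glutamine transporter Slc38a2 and the glutamate dehydrogenase Glud1 had log2 fold changes of 0.56 and -0.35. The neuronal glutamate transporter Slc1a1 had 0 counts in all libraries.

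Gja1 and Kcnj10 belong to the coupling and potassium buffering of glia. Gja1 encodes connexin 43, the gap junction protein that joins satellite glia to each other, and lies on chromosome 10 from 56377330 to 56402513 on the plus strand. Gja1 had 85.0, 78.9 and 111 CPM in replicates 1, 2 and 3 of Slit2fl/fl, against 58.1, 81.4 and 83.9 CPM in those of Slit2th. The groups overlapped, with the highest value in Slit2fl/fl replicate 3 and the lowest in Slit2th replicate 1. The means were 91.7 ± 17.1 and 74.5 ± 14.3 CPM (SD, n = 3 each), and the log2 fold change was -0.30 (standard error 0.34, adjusted p = 0.726 by edgeR's quasi-likelihood test). Kcnj10 (chromosome 1, 172341210 to 172374085, plus strand) had 0, 0 and 3 counts in Slit2fl/fl and 1, 3 and 2 counts in Slit2th. Both groups were at or under the floor of 3 counts in every library, so no fold change is given for it, although it passed the filter of the test.

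Of the other connexins and pannexins, 5 were tested, 1 with a log2 fold change above 0 and 4 below, with a median of -1.12 and 0 past an adjusted p of 0.05. Gjc3, the glial connexin 29, was at 72.6 to 102 CPM, with a log2 fold change of 0.15. Gjb1, the connexin 32 of myelinating Schwann cells, and the channel gene Panx1 had log2 fold changes of -2.06 and -1.12 with unadjusted p-values of 0.0135 and 0.0203, and an adjusted p of 0.423 each by edgeR's test. All Slit2th libraries were below all Slit2fl/fl libraries for Gjb1, Panx1 and Gjc1.

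Of the other potassium buffering genes, 8 were tested, 6 with a log2 fold change above 0 and 2 below, with a median of 0.34 and 0 past an adjusted p of 0.05. Kcnj16, which encodes the partner subunit of Kcnj10, had 0 counts in all libraries. The pump subunit Atp1b3 and the chloride cotransporter Slc12a2, highest in CPM on this list, had log2 fold changes of 0.04 and 0.20.

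Apoe and Fabp7 carry lipids. Apoe encodes apolipoprotein E, which glia and macrophages both secrete, and lies on chromosome 7 from 19696109 to 19699188 on the minus strand. Apoe had 30.7, 13.6 and 8.51 CPM in replicates 1, 2 and 3 of Slit2fl/fl, against 114, 12.4 and 16.3 CPM in those of Slit2th. It was highest in replicate 1 of each group, and Slit2th replicates 2 and 3 lay within the Slit2fl/fl range. The means were 17.6 ± 11.6 and 47.7 ± 57.8 CPM (SD, n = 3 each). The log2 fold change of 1.39 (standard error 0.86, adjusted p = 0.544 by edgeR's quasi-likelihood test) was -0.32 without Slit2th replicate 1 and 0.36 without replicate 1 of both groups.

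The sum of macrophage markers was highest in the library where Apoe was highest. The 15 markers summed to 128, 71.2 and 36.9 CPM in replicates 1, 2 and 3 of Slit2fl/fl, against 671, 130 and 152 CPM in those of Slit2th, so that replicate 1 was highest in each group, as for Apoe. Of the 12 tested, 11 had a log2 fold change above 0, with a median of 1.73. The microglia and macrophage gene Aif1 had 181 CPM in Slit2th replicate 1 and at most 0.639 CPM in the other 5 libraries, and the lysozyme gene Lyz2 had 284 CPM there against 17.0 to 78.9 CPM. The sum in that library came mostly from Lyz2, Aif1 and C1qa (73.9 CPM), and not all 15 markers were highest there. Csf1r had 0 counts in it. Adgre1 had 6.16 CPM in it, against 6.19 and 7.32 CPM in Slit2th replicates 2 and 3. Fcer1g had 37.0 CPM in it, against 39.0 CPM in Slit2fl/fl replicate 1. The part of macrophages in the Apoe values was not tested.

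**Figure D4:**
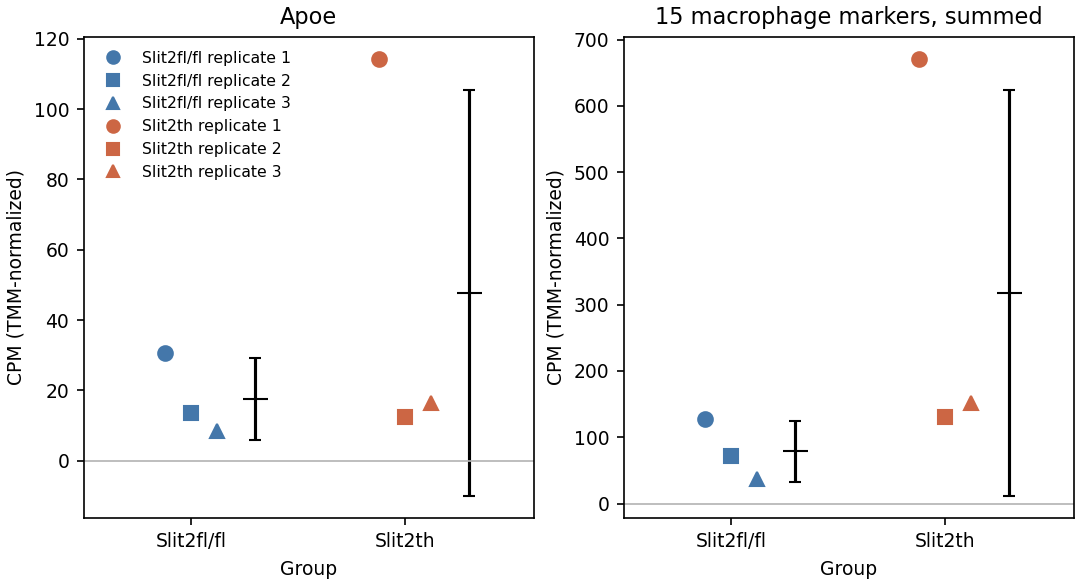
Apoe (left) and the sum of 15 macrophage markers (right) in TMM-normalized CPM, by group, with a symbol per library and the mean ± SD of 3 libraries beside it. Slit2th replicate 1 is the highest library in both panels, at 114 CPM for Apoe and 671 CPM for the markers, and Slit2fl/fl replicate 1 is the highest of its group in both. The lower SD bar of Apoe in Slit2th passes below 0.

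Fabp7 (chromosome 10, 57784881 to 57788450, plus strand) had 1, 1 and 3 counts in Slit2fl/fl and 0, 0 and 1 counts in Slit2th. No library was over the floor of 3 counts, and no fold change is given. Of the other genes for fatty acid binding and the transport of cholesterol and apolipoproteins, 10 were tested, 6 with a log2 fold change above 0 and 4 below, with a median of 0.14 and 0 past an adjusted p of 0.05. Fabp5, from the same family as Fabp7, was present at 108 to 1244 CPM, again highest in replicate 1 of each group. Fabp4, a family member of fat cells and endothelium, had a log2 fold change of -2.81 (unadjusted p = 0.0360, adjusted p = 0.448 by edgeR's test) that rested on 53.9 CPM in Slit2fl/fl replicate 3, against 0 to 6.47 CPM in the other 5 libraries. The apolipoprotein Apod, abundant in nerve, stood at 2711 to 10551 CPM, and Abca1, which loads cholesterol onto apolipoprotein E, at 979 to 2397 CPM with all Slit2th libraries higher.

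Gfap encodes the intermediate filament of astrocytes and of some peripheral glia (chromosome 11, 102887336 to 102900912, minus strand). Gfap had 9, 3 and 1 counts in Slit2fl/fl and 3, 0 and 1 counts in Slit2th replicates 1, 2 and 3. Only Slit2fl/fl replicate 1 was over the floor, and no fold change is read from these counts. The other filaments of immature glia were abundant, vimentin (Vim) at 11336 to 19678 CPM and nestin (Nes) at 395 to 688 CPM. The 5 filament and linker genes tested besides Gfap had a median log2 fold change of -0.84, 2 above 0 and 3 below. The linker gene Plec had 3719 CPM in Slit2fl/fl replicate 1 and 45.7 to 60.8 CPM in the other 5 libraries, so that its log2 fold change of -4.72 (unadjusted p = 0.0115, adjusted p = 0.423 by edgeR's test) rested on a single library.

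Ptprz1 encodes a receptor protein tyrosine phosphatase of glial progenitors that binds pleiotrophin and tenascin, and lies on chromosome 6 from 22875502 to 23052916 on the plus strand. Ptprz1 had 5.75, 8.41 and 8.51 CPM in replicates 1, 2 and 3 of Slit2fl/fl, against 10.6, 11.4 and 18.6 CPM in those of Slit2th. All Slit2th libraries were above all Slit2fl/fl libraries, on 12 to 33 counts a library. The means were 7.56 ± 1.56 and 13.5 ± 4.41 CPM (SD, n = 3 each), with a log2 fold change of 0.85 (standard error 0.47, 95% interval -0.21 to 1.91). The adjusted p was 0.512 by edgeR's quasi-likelihood test, and the two-sided exact permutation p was 0.1, the smallest possible.

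The ligands of Ptprz1 had higher levels per kilobase than the receptor, with means over the 6 libraries of 116 CPM per kb for pleiotrophin (Ptn) and 56.3 CPM per kb for tenascin C (Tnc), against 0.740 CPM per kb for Ptprz1. Ptn stood at 289 to 474 CPM, and Tnc had 293, 232 and 296 CPM in the Slit2fl/fl libraries, against 973, 440.0 and 391 CPM in the Slit2th ones, a log2 fold change of 1.13 (unadjusted p = 0.0237, adjusted p = 0.430 by edgeR's test). All Slit2th libraries were above all Slit2fl/fl libraries for Ptn, Tnc and the adhesion gene Nrcam. Syndecan 3 (Sdc3), another pleiotrophin receptor, had a log2 fold change of -2.30 (unadjusted p = 0.00871, adjusted p = 0.423 by edgeR's test) at 1.69 to 17.3 CPM. Of the 6 ligands and partners tested, 4 had a log2 fold change above 0 and 2 below, with a median of 0.37 and 0 past an adjusted p of 0.05.

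The families of S100b and Cdh19 were read in the same way. Of 7 other S100 genes tested, 1 had a log2 fold change above 0 and 6 below, with a median of -0.63 and 0 past an adjusted p of 0.05. S100a4 and S100a16 had log2 fold changes of -2.66 and -1.88 with unadjusted p-values of 0.00409 and 0.00642 and an adjusted p of 0.423 each by edgeR's test, with no overlap between the groups. S100a6, highest in CPM of these, had 2358, 2846 and 3293 CPM in the Slit2fl/fl libraries, against 2741, 1516 and 1235 CPM in the Slit2th ones, with the lowest values in Slit2th replicates 2 and 3, as for S100b. S100a10 and S100a11 had log2 fold changes of -0.24 and -0.05. Ager, a receptor for S100b, was not tested and had at most 7.04 CPM, in Slit2th replicate 1. Of 7 other cadherins and catenins tested, 4 had a log2 fold change above 0 and 3 below, with a median of 0.38 and 0 under an unadjusted p of 0.05. N-cadherin (Cdh2), with a log2 fold change of 0.83, and Cdh6, with 0.38, were higher in all Slit2th than in all Slit2fl/fl libraries, as was Cdh19. The catenins Ctnna1 and Ctnnd1 had log2 fold changes of -0.03 and -0.12.

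Further genes of satellite and immature glia ranged from the floor to high levels. Sox2, a transcription factor of immature glia, had 374, 1036 and 760 CPM in the Slit2fl/fl libraries, against 1119, 1165 and 1270 CPM in the Slit2th ones, with no overlap and a log2 fold change of 0.71. The endothelin receptor Ednrb stood at 131 to 294 CPM and the satellite glia ectonucleotidase Entpd2 at 68.6 to 94.9 CPM. Tfap2a, a neural crest factor, had a log2 fold change of -1.73 (unadjusted p = 0.00697, adjusted p = 0.423 by edgeR's test), with all Slit2th libraries lower. Of 12 such genes tested, 9 had a log2 fold change above 0 and 3 below, with a median of 0.29. Scrg1 had 0 counts in 5 of the 6 libraries.

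Because the cultures hold several cell types, the genes were also set against glial markers counted in the same library. The 8 pan-glial markers, with Sox10, Erbb3, Foxd3 and Gpm6b among them, summed to 4110, 9270 and 9778 CPM in replicates 1, 2 and 3 of Slit2fl/fl, against 18784, 12640 and 14663 CPM in those of Slit2th. All Slit2th sums were higher than all Slit2fl/fl sums. S100b had 30.0, 20.7 and 26.3 counts per 100 pan-glial counts in Slit2fl/fl and 9.87, 7.60 and 6.68 in Slit2th. On this scale S100b, Gja1 and Glul were lower in all Slit2th libraries, with mean log2 differences of -1.67, -1.38 and -1.08 and an exact permutation p of 0.1 each, the smallest possible. The denominator was itself higher in all Slit2th libraries. A gene with a log2 fold change near 0 per library, such as Glul (0.01), therefore comes out lower on this scale. The lack of overlap and these p-values cannot be told apart from the rise of the denominator. The share of all genes without overlap on this scale was not computed. Cdh19 had 8.27, 13.6 and 11.4 counts per 100 pan-glial counts in Slit2fl/fl and 7.37, 15.4 and 13.4 in Slit2th, with overlap and a mean log2 difference of 0.08 (exact permutation p = 0.8). The mean log2 differences of Apoe, Slc1a3 and Ptprz1 were -0.18, -0.33 and -0.27, all with overlap.

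These values depended on the denominator. Per count of Sox10 and Erbb3 alone, which summed to 540 to 944 CPM for Slit2fl/fl and 585 to 724 CPM for Slit2th, all 7 genes overlapped between the groups. The mean log2 difference was then -0.45 for S100b, -0.15 for Gja1, 0.15 for Glul and 1.31 for Cdh19, with exact permutation p-values of 0.4, 0.5, 0.7 and 0.2. S100b and Gja1 were thus below 0 under all 3 scales, whereas Glul, Apoe, Slc1a3 and Ptprz1 changed sign with the denominator. Cdh19 was above 0 under all 3, but only by 0.08 per pan-glial count. That value ranged from -0.13 to 0.40 with single libraries left out, so its sign was not stable. The shift from the pan-glial markers to Sox10 and Erbb3 is by construction the same for every gene, so these sign changes are not separate observations.

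**Figure D5:**
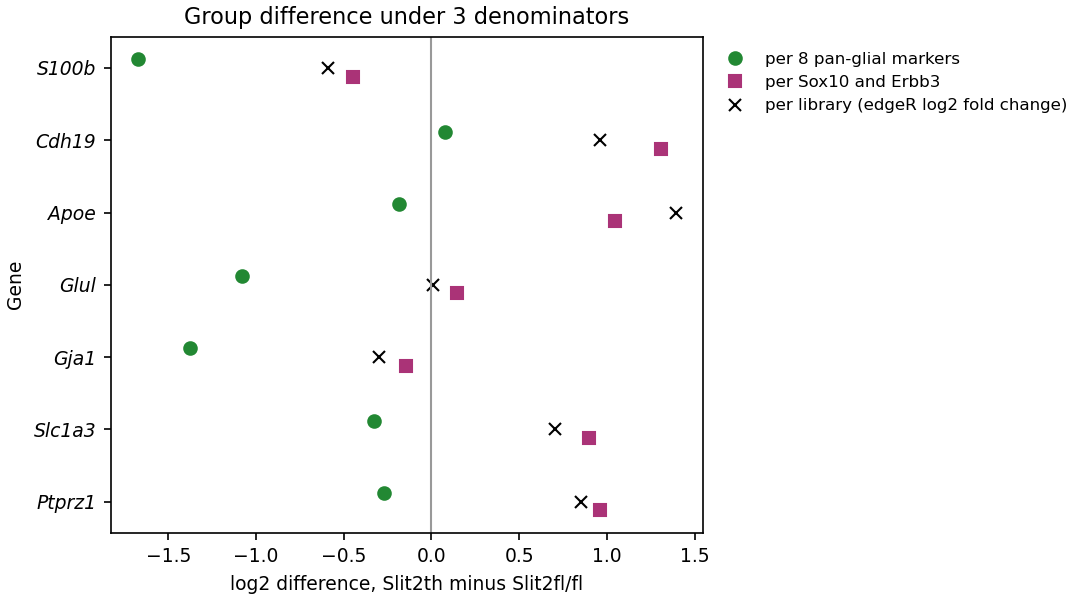
Group difference (Slit2th minus Slit2fl/fl, log2) for the 7 genes over the floor in every library, as the mean log2 ratio to 8 pan-glial markers (green circles), the mean log2 ratio to Sox10 and Erbb3 (purple squares) and the edgeR log2 fold change per library (black crosses). S100b and Gja1 are below 0 under all 3, and Glul, Apoe, Slc1a3 and Ptprz1 lie on both sides of 0. Cdh19 is above 0 under all 3, by only 0.08 for the 8 pan-glial markers. Values per 8 pan-glial markers are the lowest of the 3 for every gene. The distance between circle and square is the same for every gene, because only the denominator differs between them.

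Markers of other cells were counted in the same libraries, as summed CPM. The 6 astrocyte markers in the table were at 0.567 to 5.28 CPM, with Aldoc at 0 counts. Fibroblast markers were at 2557 to 3550 CPM for Slit2fl/fl and 3345 to 4988 CPM for Slit2th, with Col1a2, Dcn and Col1a1 the most abundant and 10 of 12 tested above 0. Sympathetic neuron markers were at 175 to 576 CPM for Slit2fl/fl and 185 to 192 CPM for Slit2th, mostly from Tubb3, Uchl1 and Stmn2. Myelin markers were at 439 to 1353 and 431 to 521 CPM, endothelial markers at 42.5 to 132 and 49.5 to 57.2 CPM, and smooth muscle and pericyte markers at 66.9 to 172 and 46.2 to 199.8 CPM. For the neuron, myelin and endothelial lists, Slit2fl/fl replicate 1, the library with the lowest S100b of its group and the lowest Cdh19 of all, gave the highest sum. Proliferation markers, led by Top2a and Mki67, were at 600 to 629 CPM for Slit2fl/fl and 246 to 443 CPM for Slit2th, with 14 of 16 below 0 and no overlap of the sums, as for the ratio of S100b to Cdh19. The part of any of these in the values of the 10 genes was not tested.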

How the data were processed

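The authors isolated RNA from the cultures, prepared libraries, aligned the reads with HISAT2 and deposited whole-number read counts per gene, not normalized, for all 6 libraries. The study's methods name the build mm10, while the submitters' processing notes name GRCm39. The counting program, strand setting and annotation release are not given in the sources used here. The isolation method also names dorsal root neurons. Libraries were grouped by the genotype label, with replicate numbers from the descriptions. The 10 genes, the related and marker lists and the tests were chosen with earlier results of these data known. Named genes were the 10 genes, Slit2, up to 3 genes of each list by mean CPM, related genes under an unadjusted p of 0.05, and the 5 genes most correlated with S100b. Genes outside this rule (Gjc1, Kcnj16, Cdh6, Entpd2, Ager, Slc1a1, Scrg1, Aldoc, Th, Rbfox3) were chosen after their values were seen, and a few further genes under the rule are not reported here.

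From the deposited counts, libraries were normalized by TMM, genes that reached a CPM of 1 in 3 or more libraries were fitted with edgeR 4.0.16 (glmQLFit, glmQLFTest, R 4.3.3), and p-values were adjusted by Benjamini-Hochberg over 12152 genes. The biological coefficient of variation was 50.4%. Single values were compared by two-sided exact permutation tests on log2 CPM. Ratios to glial markers used log2 of counts, with 0.5 added to the member's count. The fit was tested on simulated data. Of the 20173 gene identifiers, 20159 were found in GENCODE M21 (GRCm38), which gave positions and exon lengths, and no coordinates were converted between builds. Alternatives were other size factors, DESeq2 1.42.0, limma 3.58.1 voom, other filters, the replicate number as a block, libraries left out and the Sox10 and Erbb3 denominator. Depth was 1255939 to 3155406 counts a library, where 3 counts are 0.959 to 2.64 CPM.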

Additional observations from a re-analysis of the deposited data

How the results depend on the processing

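None of the 9 genes passed an adjusted p of 0.05 with DESeq2's size factors, library totals, DESeq2, limma voom, no filter, a filter in all libraries or the replicate block. DESeq2 gave no adjusted p for Kcnj10 and Gfap, and the filter in all libraries left 7 genes of the set to test. With libraries left out the number was 0 to 2, and 2 (S100b and Cdh19) came without replicate 1 of both groups. At an unadjusted p under 0.05 the count was 1 of 9 with limma voom (Cdh19, beside 9.88% of all genes tested). With no filter it was 2 of the same 9 (Cdh19 and Apoe, beside 10.6%), with Fabp7 left out of the count. With the replicate block it was 1 of 9 (Cdh19, beside 13.3%, log2 fold change 1.15, unadjusted p 0.0151, adjusted p = 0.302 by edgeR). With libraries left out it was 0 to 2, where 5.8 to 17.4% of all genes were. Same-numbered libraries deviated together with correlations of 0.292, 0.245 and 0.0808, and Slit2fl/fl replicate 2 correlated best with Slit2th replicate 3 (0.255), so the numbers were not taken as pairs. Over all genes the block gave 0 calls and 1615 genes under an unadjusted 0.05, against 1308 without it.

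The median log2 fold change of the genes ranged from 0.145 to 0.99 with libraries left out, with the lowest value without Slit2th replicate 3, and from 0.67 to 0.74 in the other settings. S100b (-1.22 to -0.16), Gja1 (-0.50 to -0.14), Cdh19 (0.57 to 1.29), Slc1a3 (0.25 to 1.07) and Ptprz1 (0.56 to 1.005) kept their sign in all 16 settings. The adjusted p of Cdh19 ranged from 0.0355 to 0.855 and that of S100b from 0.00187 to 0.976. Glul changed sign with the replicate block (-0.0091) and with libraries left out (-0.20 to 0.24). Apoe ranged from -0.32 to 2.10 with libraries left out. Set against Sox10 and Erbb3 in place of the 8 pan-glial markers, Glul (0.15), Apoe (1.05), Slc1a3 (0.90) and Ptprz1 (0.96) changed sign. With libraries left out, the log2 ratio to the pan-glial markers ranged from -1.02 to 0.71 for Apoe, -0.13 to 0.40 for Cdh19 and -0.54 to 0.029 for Ptprz1. The causes were not tested.

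Calls over all genes, 0 by edgeR on 6 libraries, were 31 with DESeq2, 7 with no filter, 1 without Slit2fl/fl replicate 1 and 378 without replicate 1 of both groups, and 0 in the other settings. With 32 counts in all for Fabp7, Kcnj10 and Gfap, depth does not allow a group difference in these genes to be seen.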
